A study of Homo sapiens with 6 samples.

Results

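WNT proteins are secreted, lipid-modified ligands, and the genes described here encode the ligands, the proteins that bind, block or tune them at the cell surface, and the cytoplasmic and nuclear proteins that relay their signal. They were chosen by symbol (WNT, FZD, SFRP or DKK followed by a digit, 37 genes) together with 30 listed genes, and 65 of these 67 genes were measured, out of 18417 genes in all. PORCN and TCF7 were not analysed here. Expression was measured on Affymetrix whole-transcript arrays in HCT116, an established human colorectal carcinoma line, with 3 arrays of the parental line and 3 arrays of a derived mutant line labelled as having altered DNA methylation. Both lines grew in McCoy's 5A medium with serum. The mutated gene is not named in the labels, and nothing in them says whether the mutant arrays come from 1 clone or from separate cultures.

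In the canonical pathway a WNT ligand joins a Frizzled receptor with the co-receptor LRP5 or LRP6, which stops the destruction complex of APC, AXIN and the kinases GSK3 and CK1 from marking beta-catenin for degradation. Beta-catenin then acts with TCF and LEF factors on target genes, several of which are themselves inhibitors of the pathway. In the intestine this signal maintains the crypt stem cells, and most colorectal cancers carry a mutation that activates it. HCT116 cells carry theirs in the beta-catenin gene CTNNB1, while APC is intact. The ligases RNF43 and ZNRF3 remove Frizzled receptors from the membrane, and R-spondins, through LGR receptors, hold these ligases back.

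In these arrays the largest difference among the 65 genes was that of RNF43, which was 14.8-fold lower in the mutant. DKK1, a secreted antagonist that binds LRP5 and LRP6, rose 2.45-fold, and LGR4, a receptor for R-spondins, rose 1.76-fold. TCF7L2, the main TCF factor of the gut epithelium, fell 1.89-fold, and the ligand WNT16 fell 1.84-fold. A value is the log2 expression of 1 probe set, a difference is mutant minus parental on that scale, and a gene passed when its Benjamini-Hochberg adjusted p in limma, over all 33297 probe sets, was under 0.05. By that rule 7 of the 65 genes rose, 6 fell and 52 did not pass, so 20.0% passed where 25.9% of all genes did. The share higher over all genes was 14.6% and the share lower 11.3%. The median difference of the 65 was -0.02, against 0.00 over all genes. The share that passed was not above the background, so the count is no result about the set, and what follows describes single genes.

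**Figure D1:**
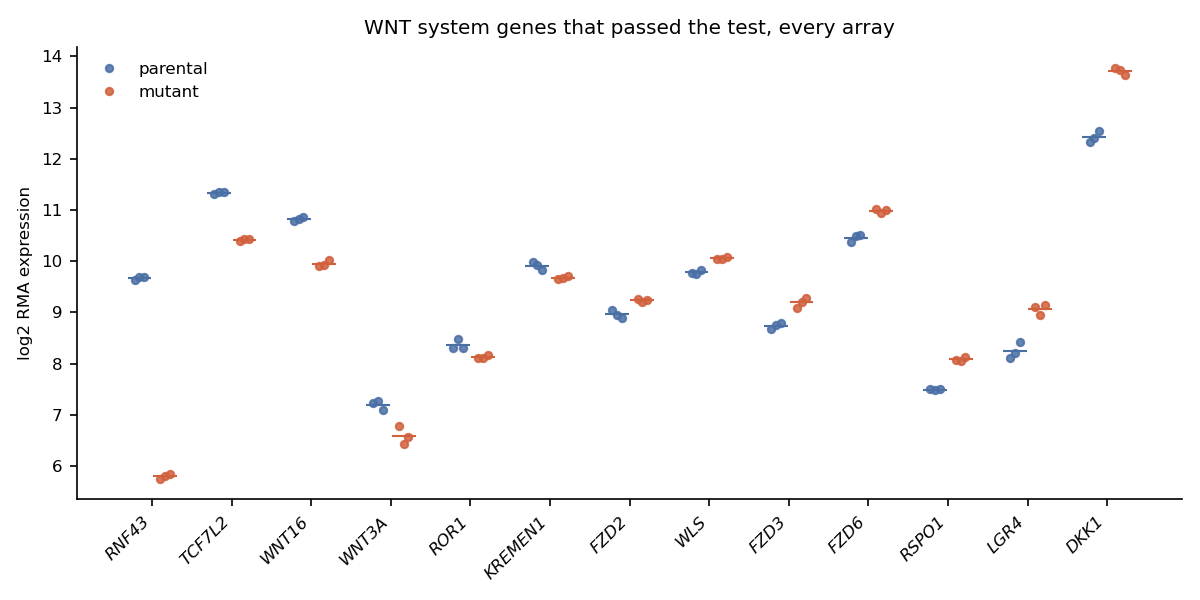
Log2 expression (vertical axis) of the 13 WNT system genes that passed the test, ordered by their difference, in the 3 parental arrays (blue points) and the 3 mutant arrays (red points), with group means as bars. The groups do not overlap for any of the 13, nor for 45.8% of all genes. The 13 were chosen by a test on the same arrays, so their separation is no further support. RNF43 shows the widest gap, with parental arrays from 9.64 to 9.70 and mutant arrays from 5.75 to 5.84.

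Since the mutant line is described by its DNA methylation, which acts on CpG sites, the bases just upstream of an annotated start are shown. They are given for the 4 WNT system genes with the largest differences, with every CpG in capitals. The sequences are those of RefSeq on GRCh38.p14, 250 bases long and read on the gene's strand. For RNF43 and TCF7L2, which have several windows in the table, the one before the outermost start is shown. The only WNT16 window there precedes an inner start, within the span of the gene. RNF43 (chr17:58417535-58417784, minus strand) holds 4 CpGs, DKK1 (chr10:52314031-52314280, plus strand) 18, TCF7L2 (chr10:112949997-112950246, plus strand) 21 and WNT16 (chr7:121328750-121328999, plus strand) 17.
RNF43: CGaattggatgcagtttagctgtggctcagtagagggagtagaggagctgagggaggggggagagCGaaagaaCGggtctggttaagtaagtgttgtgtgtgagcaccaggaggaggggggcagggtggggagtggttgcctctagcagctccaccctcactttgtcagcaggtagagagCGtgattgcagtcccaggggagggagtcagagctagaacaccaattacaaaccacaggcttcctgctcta
DKK1: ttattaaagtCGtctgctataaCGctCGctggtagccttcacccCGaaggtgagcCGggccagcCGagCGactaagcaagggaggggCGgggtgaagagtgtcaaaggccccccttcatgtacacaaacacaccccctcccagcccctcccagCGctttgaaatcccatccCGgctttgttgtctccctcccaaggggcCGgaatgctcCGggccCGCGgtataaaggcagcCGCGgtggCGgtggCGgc
TCF7L2: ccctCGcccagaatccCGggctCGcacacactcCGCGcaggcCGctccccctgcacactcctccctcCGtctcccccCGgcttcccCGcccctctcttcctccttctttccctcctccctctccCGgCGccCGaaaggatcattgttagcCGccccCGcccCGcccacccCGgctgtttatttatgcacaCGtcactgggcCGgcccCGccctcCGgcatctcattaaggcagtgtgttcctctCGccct
WNT16: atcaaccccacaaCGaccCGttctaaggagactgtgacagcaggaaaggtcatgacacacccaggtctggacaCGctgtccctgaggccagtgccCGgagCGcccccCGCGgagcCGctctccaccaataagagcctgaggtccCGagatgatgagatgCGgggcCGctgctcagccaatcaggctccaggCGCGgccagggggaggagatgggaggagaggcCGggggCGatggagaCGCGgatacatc
Over all 35116 such windows the median was 11 CpGs, with quartiles of 3 and 23. The core letters bound by TCF and LEF factors, CTTTGAT and CTTTGAA, were searched on both strands. CTTTGAA occurs 1 time in the DKK1 window and is held by 3.80% of all windows, and CTTTGAT occurs in none of the 4 and in 2.26% of all windows. Such matches describe the letters only, and no methylation or binding was analysed here. Windows were found for 45 of the 65 genes, too few for a comparison of base composition over the set.

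The R-spondin module, which sets how many Frizzled receptors stay at the surface, had 7 measured genes, of which 2 rose and 1 fell. RNF43 (probe set 8016994, chromosome 17) stood at 9.64, 9.70 and 9.70 in the parental arrays and at 5.75, 5.80 and 5.84 in the mutant arrays. All mutant arrays were far below all parental arrays, a difference of -3.88 ± 0.05 (SE; 95% interval -4.01 to -3.76; limma adjusted p = 7.88e-07). RMA compresses differences of dim probe sets, so the fitted fold can understate the fall. ZNRF3, the paralogous ligase, changed by 0.02 (95% interval -0.13 to 0.17; limma adjusted p = 0.895), with means of 8.79 and 8.81. The difference between the 2 ligases was not tested.

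LGR4 (chromosome 11) was measured at 8.11, 8.21 and 8.42 in parental cells and at 9.10, 8.95 and 9.14 in mutant cells. Every mutant array lay above every parental array, and the difference was 0.81 ± 0.10 (SE; limma adjusted p = 0.00254). RSPO1, the only R-spondin gene that passed, read 7.50, 7.48 and 7.50 against 8.07, 8.06 and 8.12, with a spread in each group far smaller than the difference of 0.59 (limma adjusted p = 5.15e-04). RSPO4 moved by 0.25 without overlap of its arrays but missed the threshold (adjusted p = 0.0512), and RSPO2 and RSPO3 differed by 0.00 and 0.15 (adjusted p = 0.998 and 0.335). The other LGR receptors, which belong to the wider pathway list below, differed by -0.03 for LGR5, the crypt stem cell receptor, and by -0.01 for LGR6.

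RNF43 lies among genes that were also lower. Of the 20 nearest measured genes on chromosome 17, 10 on each side, all with a mean of at least 7, 15 fell and 0 rose, with a median of -0.41 and a range from -0.89 to 0.22. Its direct neighbours SUPT4H1 and MTMR4 fell by 0.66 and 0.57 on the log2 scale. The fall of RNF43 was larger than the difference of any of these neighbours. Around DKK1 on chromosome 10, 7 of 20 neighbours rose and 0 fell (median 0.18), among them CSTF2T at 0.46 and ZWINT at 0.47. Over all genes with a mean of at least 7, 36.5% passed in either direction. The count around DKK1 is near that share and is no result by itself, while the count around RNF43 is above it. Around the other 11 genes that passed, the neighbour medians lay between -0.09 and 0.05. WNT16 is flanked by FAM3C, which fell by 0.74, and ING3, which fell by 0.37 (limma adjusted p = 2.62e-04 and 0.0141). Of the 20 neighbours of WNT16, 2 rose and 6 fell, with a median of -0.04. Around TCF7L2, 3 of 20 neighbours rose and 6 fell (median -0.06), with ACSL5 lowest at -4.85. The direct flanks of TCF7L2, VTI1A (-0.34) and DCLRE1A (0.02), did not pass. Other flanks went against their gene. ATP6V1C1 beside FZD6 fell by 0.84 and EXTL3 beside FZD3 fell by 0.60 (limma adjusted p = 2.26e-04 and 4.69e-04), while FZD6 and FZD3 rose. The part of any regional difference in the values of the WNT genes was not tested.

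**Figure D2:**
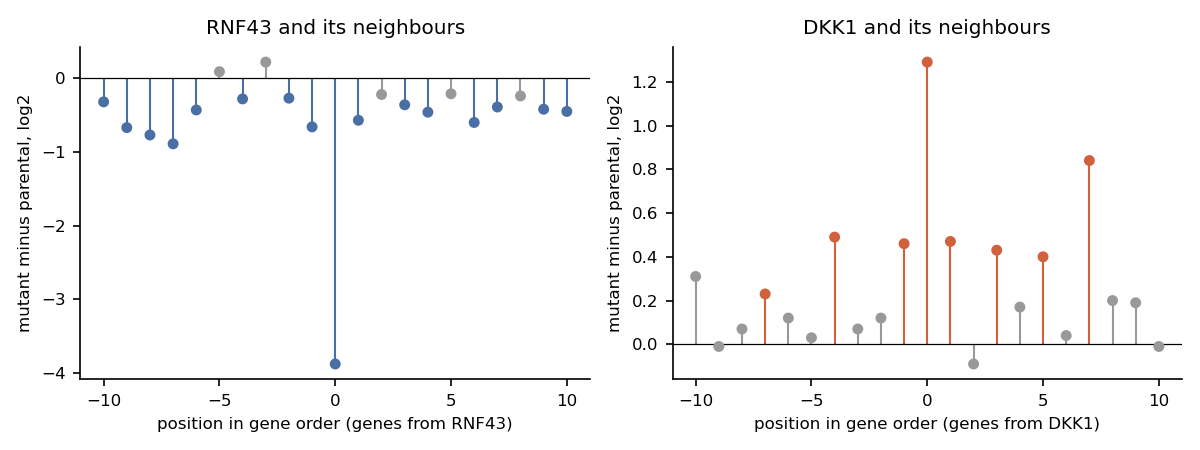
Mutant minus parental difference (log2, vertical axis) of RNF43 and DKK1 at position 0 and of the 10 nearest genes with a mean of at least 7 on each side, by gene order (horizontal axis). Red points rose, blue points fell and grey points did not pass. RNF43 at -3.88 is far below its neighbours, which run from -0.89 to 0.22, while the neighbours of DKK1 run from -0.09 to 0.84 below its own 1.29.

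Of 19 measured ligand genes, 2 fell, 0 rose and 17 did not pass, with a median of -0.02. WNT16 (chromosome 7) read 10.79, 10.83 and 10.87 in the parental arrays and 9.90, 9.92 and 10.03 in the mutant arrays. The 2 groups were well apart, with a difference of -0.88 ± 0.06 (SE; limma adjusted p = 2.87e-04). WNT3A, a ligand that activates beta-catenin signalling, had a wider spread in both groups than WNT16, at 7.23, 7.27 and 7.09 against 6.78, 6.43 and 6.57. It fell by 0.60 (95% interval -0.85 to -0.35; limma adjusted p = 0.0103). Among the 17 others the differences ran from -0.26 (WNT1) to 0.14 (WNT8B), and WNT10A came nearest to passing with -0.19 (adjusted p = 0.0573). WNT5A, the best known ligand of the beta-catenin-independent branch, differed by -0.02 (95% interval -0.20 to 0.17). The ligand genes with a mean of at least 8 that did not pass were WNT1 (8.17 parental, 7.91 mutant), WNT9A (8.22 and 8.15) and WNT10B (8.66 and 8.68). Means of different genes are not compared, because a probe set's level depends on its probes, and the table has no detection calls that would show which dim ligands lie above background.

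WLS, which carries lipid-modified WNT proteins to the cell surface, read 9.77, 9.75 and 9.82 in parental cells and 10.05, 10.04 and 10.09 in mutant cells. The groups did not overlap, and WLS rose by 0.28 (limma adjusted p = 0.00969). NOTUM, the enzyme that strips the lipid and inactivates the ligand, was 8.39 in parental and 8.23 in mutant cells and did not pass (adjusted p = 0.193).

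Of the 10 Frizzled genes, 3 rose and 0 fell, with a median of 0.09. FZD6 (chromosome 8) stood at 10.38, 10.49 and 10.51 against 11.02, 10.94 and 11.00, a rise of 0.53 (95% interval 0.39 to 0.66; limma adjusted p = 0.00172). FZD3, also on chromosome 8 and known with FZD6 for planar cell polarity, read 8.67, 8.75 and 8.80 against 9.09, 9.20 and 9.29, a rise of 0.45 (limma adjusted p = 0.00744). The mutant arrays of both genes were all above the parental ones. FZD2 (chromosome 17) read 9.04, 8.95 and 8.90 against 9.26, 9.20 and 9.25, and rose by 0.28 (limma adjusted p = 0.0181). That call was lost when any 1 array other than parental replicate 1 was left out, with adjusted p from 0.0524 to 0.0704. The other 7 Frizzled genes ranged from -0.10 to 0.11, each with a 95% interval inside a 1.5-fold change. FZD5, a Frizzled of the intestinal epithelium, was 8.43 and 8.39 in the 2 lines, FZD7 8.24 and 8.35, FZD1 8.69 and 8.80, and FZD8 8.33 and 8.24.

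The co-receptors and alternative receptors showed small differences. LRP5 and LRP6, the co-receptors of the canonical pathway, differed by 0.12 (95% interval 0.00 to 0.23; limma adjusted p = 0.151) and by -0.04 (-0.16 to 0.08; adjusted p = 0.655). ROR1, a receptor tyrosine kinase of the beta-catenin-independent branch, read 8.31, 8.49 and 8.31 against 8.11, 8.10 and 8.17 and was just inside the threshold (-0.25, limma adjusted p = 0.0497). Leaving out any 1 of the 6 arrays removed its call (adjusted p = 0.0753 to 0.146). Its paralog ROR2 was just outside, with -0.27 (adjusted p = 0.0508), so the 2 ROR genes had nearly equal differences on opposite sides of the threshold. LRP5 had means of 9.73 and 9.85, LRP6 of 9.41 and 9.37, and ROR2 of 9.07 and 8.81. RYK, an atypical receptor kinase, differed by -0.13 (adjusted p = 0.197) at means of 11.32 and 11.19.

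The largest rise among the WNT system genes was that of an antagonist. DKK1 (probe set 7927631) read 12.33, 12.40 and 12.55 in the parental arrays and 13.78, 13.74 and 13.64 in the mutant arrays. Even the lowest mutant array exceeded the highest parental array by far more than either group's spread, and the difference was 1.29 ± 0.08 (SE; 95% interval 1.11 to 1.48; limma adjusted p = 2.11e-04). KREMEN1, a partner through which DKK1 takes LRP6 off the surface, read 9.99, 9.92 and 9.83 against 9.65, 9.67 and 9.71 and fell by 0.23 (limma adjusted p = 0.0397). This call was lost when any array but parental replicate 3 was left out (adjusted p = 0.0788 to 0.119) and when the arrays were quantile normalized again (adjusted p = 0.0532). KREMEN2 differed by 0.08 (adjusted p = 0.526) at means of 8.55 and 8.63.

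Of 13 measured antagonists 11 did not pass, KREMEN2 among them, and their differences lay between -0.13 and 0.13. They include genes often silenced by DNA methylation in colorectal cancer. SFRP1 had means of 5.57 and 5.50 (95% interval of the difference -0.43 to 0.28), SFRP2 5.04 and 5.05 (-0.17 to 0.20), SFRP5 7.64 and 7.56 (-0.29 to 0.15) and WIF1 5.15 and 5.02 (-0.45 to 0.19). Each of these intervals lies inside a 1.5-fold change on the scale of the arrays. SFRP2 and WIF1 were near the lower quartile of the arrays (4.99 to 5.04), and SFRP1 was below every array median (6.88 to 6.93). RMA compresses differences of such dim probe sets, so narrow intervals there cannot show that these 3 genes are unchanged. DKK3 differed by 0.00 (adjusted p = 0.994) on its brighter probe set and by 0.37 (adjusted p = 0.185) on its other, the one gene of the 65 with a second probe set.

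None of the 6 genes of the destruction complex and its feedback inhibitors passed, and their differences ran from -0.06 to 0.14. AXIN2, the scaffold gene often used to read out beta-catenin activity, had means of 8.06 ± 0.07 and 8.20 ± 0.08 (SD, n = 3 each) and a difference of 0.14 (95% interval -0.02 to 0.30; limma adjusted p = 0.210). NKD1, another feedback inhibitor, was 8.64 and 8.57, AXIN1 8.64 and 8.67, and APC 7.95 and 8.04. TCF7L2 (probe set 7930537, chromosome 10) read 11.31, 11.36 and 11.35 in the parental arrays and 10.40, 10.43 and 10.43 in the mutant arrays. Within each line its arrays spanned 0.05 or less, and it fell by 0.92 (95% interval -1.03 to -0.81; limma adjusted p = 1.20e-04). TCF7L1, a factor that mostly represses targets, was 9.11 and 9.13 (adjusted p = 0.863), and LEF1 differed by 0.14 (adjusted p = 0.475).

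**Figure D3:**
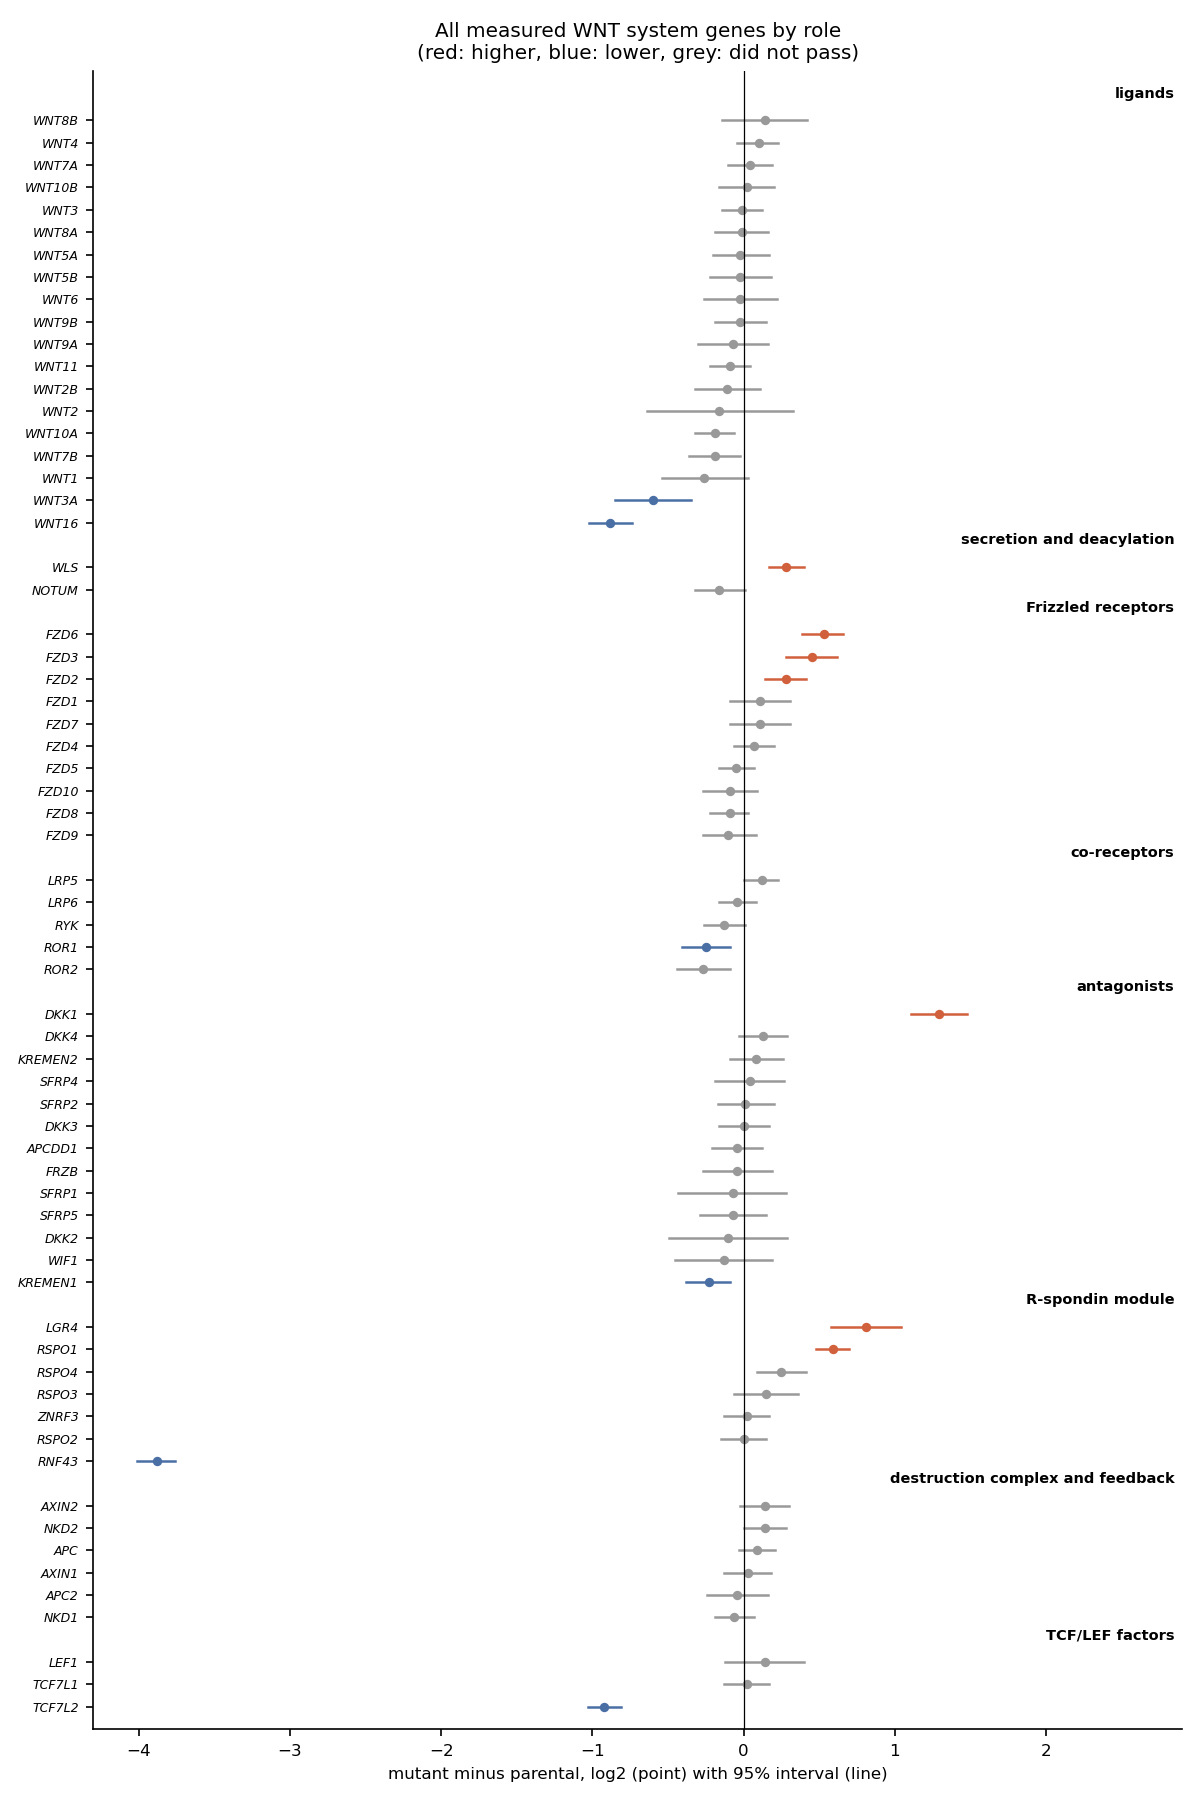
Mutant minus parental difference (log2, horizontal axis; points) with its 95% interval (lines) for the 65 measured WNT system genes, grouped by role. Red genes rose, blue genes fell and grey genes did not pass; RNF43 at -3.88 and DKK1 at 1.29 are the extremes, and most other genes sit near 0.

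Among the 52 genes that did not pass, 51 had a 95% interval inside a 1.5-fold change in either direction, as did 96.5% of all genes that did not pass. The exception was WNT2, with an interval from -0.64 to 0.33. Groups did not overlap for 24 of the 65 genes (36.9%), against 45.8% of all genes. At 1.5-fold or more 7 of the 65 passed, a larger share than over all genes (1330 of 18417, 7.22%), and this difference was not tested. Of the 65 genes 44 had a mean of at least 7, and 12 of those 44 passed, a smaller share than over all such genes (4087 of 11208, 36.5%).

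Other genes of the pathway moved in both directions. Of 67 measured genes outside the 65, covering the destruction complex kinases, Dishevelled proteins, beta-catenin cofactors, further extracellular regulators and the planar polarity branch, 13 rose, 10 fell and 44 did not pass, with a median of 0.01. The share of these 67 that passed was 34.3%, against 25.9% of all genes. Of the 50 with a mean of at least 7, 19 passed, against 36.5% of all such genes. These differences in share were not tested. CTNNB1 itself was 12.59 and 12.71 (difference 0.12, limma adjusted p = 0.180). The largest rises were of PRICKLE1 (0.86), a core planar polarity gene, GPC3 (0.65), a glypican that binds WNT proteins, and PYGO1 (0.62), a beta-catenin cofactor. GPC3 (5.87 parental, 6.52 mutant) and PYGO1 (6.17 and 6.78) were dim, with means below every array median (6.88 to 6.93). All 3 CELSR genes, atypical cadherins of planar polarity, rose, by 0.36 (CELSR1), 0.33 (CELSR2) and 0.59 (CELSR3); this group was singled out after its values were seen. The CELSR2 call was lost without mutant replicate 1 or parental replicate 3 (adjusted p = 0.0510 and 0.0501). The largest falls were of TLE1 (-1.18), a Groucho-type corepressor of TCF factors, CXXC5 (-0.56), an inhibitor of Dishevelled, and DACT1 (-0.56), another Dishevelled-binding regulator. The count of 23 that passed was 15 when parental replicate 2 was left out and 14 when mutant replicate 2 was.

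Of 49 measured genes often described as beta-catenin targets, 10 of which are among the 65, 8 rose, 14 fell and 27 did not pass, with a median of -0.04. The share of the 49 that passed was 44.9%, against 25.9% of all genes. Of the 32 targets with a mean of at least 7, 20 passed, against 36.5% of all such genes. These differences in share were not tested either. The targets that moved did so in opposite directions. Besides DKK1, the largest rises were of BMP4 (1.32), a growth factor, L1CAM (1.27), an adhesion molecule of invasive fronts, and FGF18 (1.10). Besides RNF43, the largest falls were of KRT23 (-2.65), a keratin, ID2 (-1.71), an inhibitor of differentiation factors, and TIAM1 (-1.60), a RAC activator. Further targets, named after their values were seen, went in all 3 ways. The crypt transcription factor gene SOX9, the adhesion receptor gene CD44, the matrix protease gene MMP7 and the survivin gene BIRC5 fell by 0.98, 0.50, 0.72 and 0.36, and the cyclin gene CCND1 rose by 0.28. SP5 (0.12, adjusted p = 0.504), ASCL2 (0.01, adjusted p = 0.960), LGR5 (-0.03, adjusted p = 0.776) and MYC (-0.18, adjusted p = 0.0834) did not pass. MMP7 was dim, with means of 5.25 and 4.53. Its mean over the 6 arrays, 4.89, lay below the lower quartile of every array (4.99 to 5.04). The call of MMP7 was lost without parental replicate 2 or any 1 of the mutant arrays (adjusted p = 0.0593 to 0.0836), and that of CCND1 when replicate 2 of either line was left out (0.0534 and 0.0545).

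**Figure D4:**
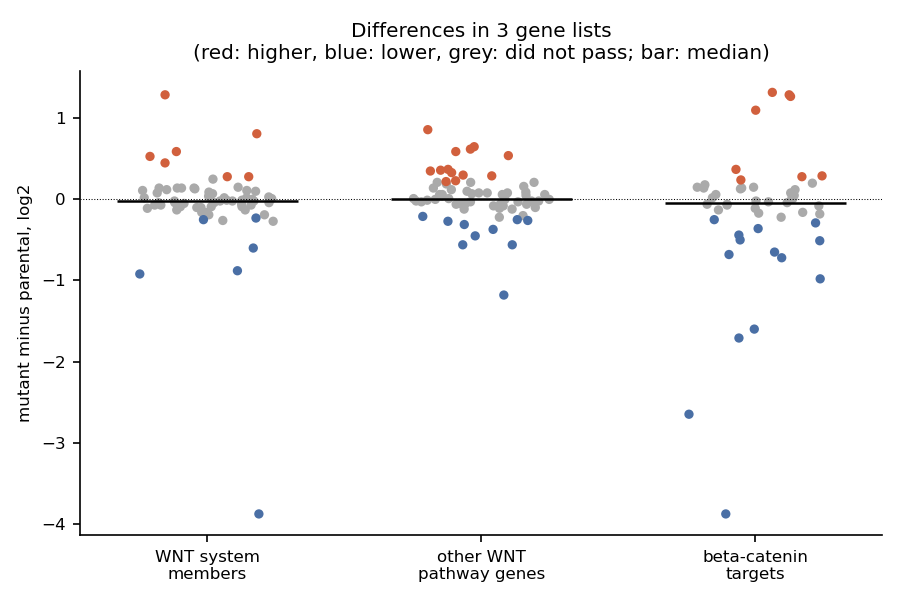
Mutant minus parental difference (log2, vertical axis) of each gene in the 65 WNT system genes, the 67 other pathway genes and the 49 beta-catenin targets; 10 of the targets are also among the 65, and LGR5 is among both the pathway genes and the targets. Red points rose, blue points fell, grey points did not pass, and the bars at -0.02, 0.01 and -0.04 are medians.

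Array medians lay between 6.88 and 6.93, and arrays correlated at 0.995 to 0.996 within a line and at 0.988 to 0.989 between lines, across probe sets, which are not independent. The epithelial identity of the line was checked on 8 markers, with mixed levels. EPCAM was bright in both lines (12.15 and 12.33), and CDX2 read 8.52 and 8.48. The gut markers LGALS4 (6.92 and 6.84) and VIL1 (5.76 and 5.76) were dim in both. CDH1, KRT18, KRT8 and KRT19 fell by 1.36, 0.88, 0.53 and 0.47, so 4 of 8 fell and 0 rose. Averaged over the 8, the arrays read 10.24 to 10.26 in parental and 9.81 to 9.91 in mutant cells, and the part of this difference in the WNT values was not tested. Of 7 fibroblast markers 1 rose (PDGFRB, 0.27), and 0 of 4 leukocyte and 0 of 3 endothelial markers passed. In parental cells the fibroblast markers ran from 3.07 (LUM) to 8.30 (COL1A1, 8.13 in the mutant), the leukocyte markers from 3.72 (PTPRC) to 9.19 (CD68, 9.33 in the mutant) and the endothelial markers from 5.00 (PECAM1) to 6.34 (CDH5). The mean over the fibroblast list was 5.75 to 5.79 in parental and 5.71 to 5.78 in mutant arrays. In RNA from whole cultures, fewer cells expressing a gene and less RNA per cell cannot be told apart. The p-values measure the spread between these arrays, which may be technical.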

How the data were processed

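The deposited table holds the authors' log2 values, 1 per probe set and array, for which the submitters' processing notes name RMA and Partek. Tool versions and the genome build were not given in the sources used here. Background correction in RMA is followed by a step that makes array distributions alike and by a summary of probes, so differences in total RNA per cell are removed. Sequencing depth does not apply, and the number of arrays (3 per group) limits precision. Probe sets with exactly 1 symbol in the platform annotation (19460 of 33297) named genes, and a gene took its probe set with the highest mean over the 6 arrays. All 65 gene IDs were found in RefSeq GRCh38.p14, used for chromosome, gene order and promoter windows.

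The deposited values were fitted without covariates in limma 3.58.1 (R 4.3.3, lmFit, eBayes, two-sided) over all probe sets, with Benjamini-Hochberg adjustment. On simulated data the fit recovered 55.22% of 1.5-fold, 76.12% of 2-fold and 95.45% of 4-fold changes. Only 200 of 33297 probe sets were changed there, far fewer than passed in the data, so these rates need not hold for the data. Tables and plots used Python 3.11.15. The members and lists were chosen with earlier results of these data known. Every member that passed is named with every array, members that did not pass with a mean of at least 8 by level, and the 3 largest calls per list and direction; other list genes were named after their values were seen. Of 69 named pathway genes 67 and of 52 targets 49 were measured. Alternatives covered scaling, dim filters (means of 5 and 6), variance models, array weights, a replicate block, arrays left out, a fold of 1.2 in the test, and the probe sets used.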

Additional observations from a re-analysis of the deposited data

How the results depend on the processing

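Under 18 alternatives, 7 of the 13 genes that passed (RNF43, DKK1, TCF7L2, WNT16, LGR4, RSPO1 and FZD6) kept their call in every one, and of the 65 none reversed a call. FZD3, WLS and WNT3A lost theirs only when the test required a fold of 1.2, FZD2 in 7 alternatives, KREMEN1 in 8 and ROR1 in 9. Of the 52 that did not pass, ROR2 passed in 7 alternatives, RSPO4 in 6 and WNT10A in 6. Requiring a fold of 1.2, stricter by construction, left 7 of the 65 genes (4 higher, 3 lower), 5 pathway genes, 12 targets and 1743 probe sets, against 13, 23, 22 and 6166. With any 1 array left out there were 10 to 11 of the 65 (6 to 7 higher, 4 to 5 lower), 14 to 17 pathway genes, 16 to 21 targets and 4037 to 4644 probe sets. Same-numbered arrays did not deviate together (correlations 0.04, -0.01 and 0.00), so the values gave no sign of pairing by number. The check cannot exclude pairing, because it uses deviations from means of 3 normalized arrays, and the labels do not say. With the replicate number as a block 10 of the 65 passed (6 higher, 4 lower), 15 pathway genes, 18 targets and 4365 probe sets. Of 20 named genes of the other lists that passed, DACT1, PYGO1, CELSR1, CELSR2, CCND1, MMP7 and BIRC5 lost their call when a fold of 1.2 was required, and CELSR2 also with the replicate block, while 13 kept it in every alternative that tested them. Of the 6 named that did not pass, MYC passed in 5 alternatives and CTNNB1 in 1.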

Other observations

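Of the 65 WNT system genes, 4 pairs of ligand genes are direct neighbours among all measured genes in chromosome order. On chromosome 1, WNT3A fell by 0.60 while WNT9A beside it differed by -0.07 (limma adjusted p = 0.0103 and 0.688). On chromosome 2, WNT10A differed by -0.19 and WNT6 by -0.02 (adjusted p = 0.0573 and 0.916), and on chromosome 12, WNT1 by -0.26 and WNT10B by 0.02 (adjusted p = 0.210 and 0.920). On chromosome 17, WNT3 and WNT9B differed by -0.01 and -0.02. The difference between the genes of a pair was not tested.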
